A study of Mus musculus with 24 samples.

Results

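The comparison set the 5 lungs of mice that had drunk the highest dose of an aqueous Artemisia argyi extract (AEAA) before a lipopolysaccharide challenge against the 4 saline control lungs, to describe what still differed from unchallenged tissue after the high dose. These 9 libraries, taken by their sample labels, are part of 24 RNA-seq libraries in 5 groups. All mice were wild-type C57BL/6, 7 weeks old and labelled male. High-dose mice (AEAA_high, n = 5) received 1.5 mg/mL extract in the drinking water for 28 days and LPS into the trachea at 5 mg/kg on day 29, and lungs were taken 8 h later. Control mice (n = 4) received no extract and, per the protocol, sterile saline into the trachea, although their sample characteristics list an LPS challenge as well. LPS mice without extract (n = 5), used here for a direct test against the high dose, received the same LPS challenge on day 29. Their lungs were also taken 8 h later. Low-dose and mid-dose mice (n = 5 each) received 0.5 and 1.0 mg/mL extract for 28 days and then the same LPS challenge. They entered the joint fit, and some of their values are given beside those of the high dose. No group received extract without LPS, so a difference between high-dose and control lungs belongs to both exposures together and their parts cannot be told apart in it. The hour of day of the challenge is not given in the sources used here.

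LPS is a cell wall component of Gram-negative bacteria that is sensed by the receptor TLR4 and, through the transcription factor NF-kB, turns on cytokines and chemokines that draw neutrophils into the airspaces. Cells under oxidative or electrophilic load release the transcription factor NRF2 from its inhibitor KEAP1, and NRF2 raises glutathione synthesis, thioredoxin and NADPH-producing enzymes. ATF4, a factor of the integrated stress response, raises amino acid transporters and serine synthesis, while an overload of unfolded protein in the endoplasmic reticulum (ER) raises chaperones. The circadian clock of lung cells is a loop in which CLOCK and BMAL1 drive their own repressors (PER, CRY, REV-ERB) and output factors such as DBP, and airway club cells, which make the secretoglobin SCGB1A1, are a known site of this rhythm.

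The deposited values are TPM (transcript levels scaled to a fixed total), which add up to 1000000 in each library. The club cell transcript Scgb1a1 alone took 3.28% to 8.68% of that total in high-dose lungs, against 23.21% to 35.45% in control lungs. Each library was therefore divided by its median-of-ratios factor, which was 0.887 to 1.07 in high-dose lungs and 0.645 to 0.801 in control lungs, and all levels below are these scaled TPM. Without this scaling the median of all genes was shifted by 0.28 (log2) towards the high-dose lungs, and with it the median was 0.00. Depth is unknown, since TPM hold no read counts. Defining markers of lung tissue, such as Scgb1a1 of club cells, Sftpc of type II alveolar cells and Tppp3 of ciliated cells, were present in all 9 libraries, with the values given below. In all 24 libraries Xist was at 25.8 to 95.5 TPM and the Y-linked Ddx3y, Eif2s3y, Kdm5d and Uty were at 0.15 TPM or less, which goes against the labelled sex.

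High-dose replicates 1 and 4 stood apart from replicates 2, 3 and 5. The root mean square distance of a library from the control mean, over log2 values of all genes tested, was 0.48 and 0.44 in high-dose replicates 1 and 4, and 1.01, 0.91 and 0.84 in replicates 2, 3 and 5. Each control library lay 0.33 to 0.39 from the mean of the other control libraries. At least a 2-fold difference from the control mean was seen for 654 and 601 genes in replicates 1 and 4, and for 3861, 3091 and 2583 genes in replicates 2, 3 and 5. The labels give no difference between these mice, all 5 stay in every fit, and values are given for each lung in the order of the replicate numbers, because many group means below describe no single animal.

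A linear model over all 24 libraries called 3300 of 17823 genes tested (18.5%) different between high-dose and control lungs at an adjusted p of 0.05 (limma, Benjamini-Hochberg), 1679 of them higher (9.42%) and 1621 lower (9.09%) in high-dose lungs. At a log2 change of at least 1 in either direction, 696 of the called genes were left (3.91% of those tested), 321 higher (1.80%) and 375 lower. The split depends on the scaling: with upper-quartile scaling 1242 genes were higher and 2056 lower, and in the TPM as deposited 6687 were higher and 270 lower. Fold changes are on the log2(scaled TPM + 1) scale, given as ± SE, and understate the change of genes with low levels. Without high-dose replicate 2, 3 or 5 the count fell to 1005, 1077 and 1738 genes. Without high-dose replicate 1 or 4 it was 6020 and 5860 genes, and without any 1 control library between 1419 and 1762. In a fit of the 2 compared groups alone, with no other group adding to the estimate of spread, 556 genes were called. Of 101 calls of genes named by rule, against control or LPS lungs, 69 were lost in that fit (adjusted p 0.0512 to 0.232). These losses are given with each gene group below as the 2-group fit. A total of 886 genes (4.97% of those tested) was called in the full fit and in all 9 fits that each left out 1 library. For 2642 genes (14.8%) every high-dose lung lay on the same side of every control lung, and of these 1980 were also called (11.1%).

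A small group of genes was far from control in every high-dose lung. Every high-dose library was at least 2-fold above every control library, on the TPM + 1 scale, for 23 genes (0.129% of those tested), and at least 2-fold below for 8 genes (0.0449%), a rule set after the values had been seen. Of the 23, Slc7a11, Srxn1 and G6pdx serve redox balance, Gsta1 and Gsta13 encode glutathione transferases, Akr1b8 and Esd (S-formylglutathione hydrolase) detoxify reactive carbonyls, Blvrb reduces biliverdin, and Phgdh opens serine synthesis. Uchl1 (a ubiquitin hydrolase), Lgals3 (galectin-3), Cdkn1a (a cell cycle inhibitor), Hmga1 (a chromatin protein), Sfn (14-3-3 sigma), Fbxo2, Prss22, Lyve1, Cd177, Il36g, Serpina3n, Speer4c1, Gm57032 and a gene without a symbol complete the set. The 8 lower genes were Scgb1a1, Scgb1c1, Cyp1a1, Gkn3, Gm12918, Gm56664, E030044B06Rik and a gene without a symbol.

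**Figure D1:**
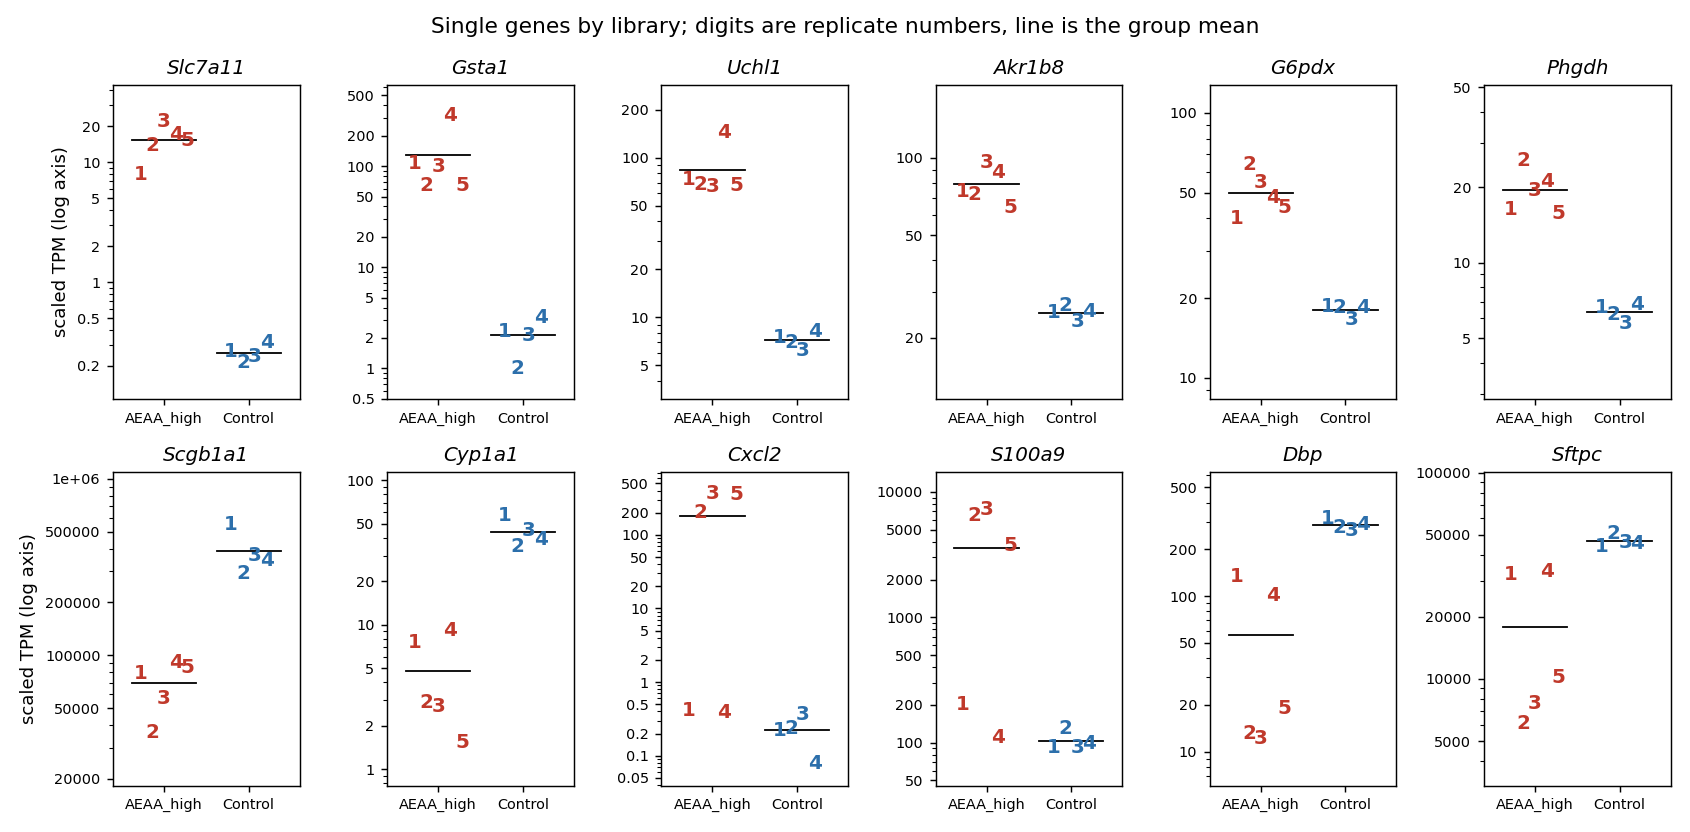
Scaled TPM (log axis) of 12 genes in the 5 AEAA_high and the 4 Control libraries; each digit is the replicate number of a library and each line is the mean of its group. In the top row every high-dose lung lies above every control lung, whereas for Cxcl2 and S100a9 replicates 1 and 4 lie near the control lungs and for Dbp and Sftpc they lie between the other high-dose lungs and the control lungs.

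Antioxidant genes under NRF2 had a positive list median in all 5 high-dose lungs: 14 of 22 measured list members rose and 0 fell (63.6%, against 18.5% of all genes), with a median log2 fold change of 0.88. Over the 9 fits that left out 1 library, 11 to 15 members passed, and 11 in the 2-group fit. Slc7a11, which imports cystine for glutathione synthesis, was at 7.99, 13.9, 22.1, 17.04 and 15.2 scaled TPM in high-dose lungs, against 0.263, 0.212, 0.238 and 0.313 in control lungs. All 5 high-dose lungs were far above all control lungs, replicate 1 being the lowest of them, and the log2 fold change was 3.63 ± 0.36, adjusted p = 7.43e-06. Srxn1 (sulfiredoxin, which restores oxidised peroxiredoxins) had 54.7, 48.7, 56.4, 94.02 and 33.4 scaled TPM in high-dose lungs, against 14.2, 14.6, 12.7 and 13.97 in control lungs. Here replicate 4 was the highest of the high-dose lungs (1.90 ± 0.34, adjusted p = 0.00184).

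Of the pentose phosphate enzymes in the list, 3 of 4 rose. G6pdx, which encodes the first enzyme of the pentose phosphate pathway, was at 39.98, 63.7, 54.4, 47.8 and 43.9 scaled TPM in high-dose lungs, against 18.6, 18.4, 16.7 and 18.4 in control lungs (1.40 ± 0.15, adjusted p = 1.13e-05). The next oxidative enzyme of the pathway, Pgd, was at 169, 215, 193, 219.6 and 165 scaled TPM in high-dose lungs, against 93.9, 79.4, 75.3 and 88.6 in control lungs (1.18 ± 0.14, adjusted p = 3.98e-05). The pathway's transaldolase, Taldo1, stood at 335, 489, 423, 466 and 405 scaled TPM in high-dose lungs, against 193, 174, 163 and 187 in control lungs (1.23 ± 0.11, adjusted p = 1.45e-06). For these 3 genes the groups were far apart, with high-dose replicate 4 among the other high-dose lungs and replicate 1 the lowest of them for G6pdx and Taldo1. The transketolase Tkt did not pass (log2 fold change 0.22 ± 0.12, adjusted p = 0.169), nor did malic enzyme Me1 (-0.08 ± 0.16, adjusted p = 0.738).

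Of the glutathione and thioredoxin enzymes in the list, Gclc, the catalytic subunit of glutathione synthesis, rose (1.24 ± 0.29, adjusted p = 0.00956), and its modifier subunit Gclm had 0.55 ± 0.32, adjusted p = 0.214. Gsr, which reduces oxidised glutathione, was at 59.7, 153, 157, 69.3 and 123 scaled TPM in high-dose lungs, against 42.2, 32.4, 32.7 and 30.6 in control lungs (1.58 ± 0.28, adjusted p = 0.00179). Replicates 1 and 4 were the lowest high-dose lungs for Gsr, yet above every control lung. Thioredoxin reductase Txnrd1 (0.84 ± 0.15, adjusted p = 0.00172), glutathione peroxidase Gpx2 (1.39 ± 0.28, adjusted p = 0.00476), the autophagy receptor Sqstm1 (0.63 ± 0.12, adjusted p = 0.00269) and the peroxiredoxin Prdx1 (0.52 ± 0.13, adjusted p = 0.0124) also rose. All genes named so far as having risen in this list kept their call in each of the 9 leave-one-out fits. Hmox1, the heme-degrading oxygenase, behaved differently, with 46.8, 314, 212, 55.9 and 191 scaled TPM in high-dose lungs, against 33.7, 34.1, 29.3 and 31.2 in control lungs. Its high-dose replicates 1 and 4 were just above the control lungs, and its call (1.96 ± 0.55, adjusted p = 0.0212) was lost without high-dose replicate 2, 3 or 5 or control replicate 3 (adjusted p up to 0.074). Nqo1, a quinone reductase, was highest in replicate 4, with 22.02, 13.8, 19.8, 46.98 and 12.6 scaled TPM in high-dose lungs, against 12.6, 8.48, 9.34 and 11.7 in control lungs, and its call (0.92 ± 0.32, adjusted p = 0.0496) was lost in each leave-one-out fit except that without high-dose replicate 5 (adjusted p up to 0.11). Hmox1 and Nqo1 were also lost in the 2-group fit (adjusted p 0.0705 and 0.112). Neither Nfe2l2, which encodes NRF2 itself (0.12 ± 0.11, adjusted p = 0.44), nor Keap1 (0.11 ± 0.12, adjusted p = 0.532) passed the test.

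Lungs that had LPS without extract were above control for 10 of the 22 list members and below for 0 (limma, against 27.9% of all genes called in that comparison), and all 10 were among the 14 that rose at the high dose. Slc7a11 was 3.63 above control in high-dose lungs, against 2.95 in LPS lungs, 3.49 at the low dose and 3.47 at the mid dose. For G6pdx these differences were 1.40, 1.42, 1.26 and 1.31 in the same order, all against the same 4 control lungs. In the direct test of high-dose against LPS lungs 3 of the 22 members passed and were higher at the high dose. Of all genes 8.94% were called in that test, and 5.67% were higher. The 3 members were Taldo1 (0.39 ± 0.10, adjusted p = 0.0202), Txn1, which encodes thioredoxin (0.78 ± 0.19, adjusted p = 0.013), and the ferritin light chain Ftl1 (0.55 ± 0.16, adjusted p = 0.0388). Over 10 fits that each left out 1 library of these groups, Txn1 kept its call in all. Taldo1 lost it without high-dose replicate 2 or 4 or LPS replicate 3 (adjusted p up to 0.062), and Ftl1 without high-dose replicate 2, 3 or 5 or LPS replicate 2, 3 or 4 (up to 0.11). In the 2-group fit with LPS lungs no gene of the whole table passed, so no call against LPS below holds in it (2901 genes at an unadjusted p under 0.05). Differences from LPS lungs also moved with transcript length across all genes (Spearman's rho -0.33, described below). The part of length in the calls against LPS was not tested.

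Among glutathione transferases 4 of 22 measured genes rose and 6 fell, (45.5% called), with a median of -0.11. In the TPM as deposited 8 rose and 2 fell, with a median of 0.23. The count of 10 called was 6 without control replicate 1 or 3. The largest increases of the genes named by rule were in the alpha class: Gsta13 had 123, 69.7, 129, 348 and 78.4 scaled TPM in high-dose lungs, against 1.89, 0.412, 1.34 and 1.45 in control lungs (5.84 ± 0.68, adjusted p = 4.11e-05). Gsta1 had 105, 64.4, 99.1, 317 and 64.96 scaled TPM in high-dose lungs, against 2.34, 0.999, 2.10 and 3.19 in control lungs (5.14 ± 0.69, adjusted p = 1.68e-04). In both, every high-dose lung was at least 20 times above every control lung and replicate 4 was the highest. The alpha class genes are close copies, and how reads shared between them were assigned is not given in the sources used here, so their single values are uncertain. Gsta2 of the same class had 0.22 ± 0.54, adjusted p = 0.795. Gsto1 (omega class) rose (0.99 ± 0.29, adjusted p = 0.0264), a call lost without high-dose replicate 3 or control replicate 1, 2 or 3 (adjusted p up to 0.078). The kappa class Gstk1, of mitochondria and peroxisomes, fell, with 76.6, 30.3, 37.04, 79.3 and 45.7 scaled TPM in high-dose lungs, against 140.5, 89.6, 118 and 117 in control lungs (-1.18 ± 0.24, adjusted p = 0.00457). Gstm7 (-0.87 ± 0.20, adjusted p = 0.00993), Gstt1 (-0.66 ± 0.15, adjusted p = 0.00993) and Gstm2 (-0.65 ± 0.11, adjusted p = 0.00171) fell too and kept their calls in all 9 leave-one-out fits. Gsto1 and these 4 lower genes were lost in the 2-group fit (adjusted p 0.0513 to 0.0788). It kept 2 members of the list, Gsta1 and Gsta13.

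Amino acid stress genes under ATF4 likewise had a positive median in all 5 high-dose lungs. Of 18 measured members 11 rose and 0 fell (61.1%, against 18.5% of all genes), with a median log2 fold change of 0.66. Over the leave-one-out fits 8 to 13 members passed, and 9 in the 2-group fit. Phgdh, the entry enzyme of serine synthesis, was at 16.3, 25.6, 19.4, 21.1 and 15.7 scaled TPM in high-dose lungs, against 6.60, 6.23, 5.73 and 6.79 in control lungs (1.47 ± 0.20, adjusted p = 1.28e-04). Psat1, which follows it, had 12.9, 26.7, 33.4, 19.1 and 24.9 scaled TPM in high-dose lungs, against 7.05, 5.99, 6.20 and 6.26 in control lungs (1.66 ± 0.21, adjusted p = 9.09e-05). The mitochondrial folate enzyme Mthfd2 stood at 7.29, 25.5, 23.2, 9.62 and 21.3 scaled TPM in high-dose lungs, against 4.97, 3.47, 2.76 and 3.84 in control lungs (1.82 ± 0.31, adjusted p = 0.00125). The groups did not overlap in any of the 3, but for Psat1 and Mthfd2 replicates 1 and 4 were the lowest high-dose lungs. The amino acid transporter Slc7a5 (1.26 ± 0.19, adjusted p = 5.96e-04), asparagine synthetase Asns (1.01 ± 0.15, adjusted p = 5.42e-04), the mitochondrial serine hydroxymethyltransferase Shmt2 (0.61 ± 0.10, adjusted p = 0.00119) and the stress protein Nupr1 (1.14 ± 0.29, adjusted p = 0.0148) rose and, like the 3 before them, kept their calls in all 9 leave-one-out fits. Atf4 itself had 0.47 ± 0.22, adjusted p = 0.125. Lungs that had LPS without extract were above control for 12 of the 18 members and below for 0, with a median of 0.86. Of all genes 27.9% were called in that comparison, and 13.8% were higher. Of the 12 members above control after LPS, 10 also rose at the high dose. Against LPS lungs only Shmt2 of this list passed, lower at the high dose (-0.33 ± 0.10, adjusted p = 0.0349), a call lost without high-dose replicate 3, 4 or 5 or LPS replicate 3, 4 or 5 (adjusted p up to 0.11).

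The median of a list in each library shows which shifts were common to the 5 high-dose lungs. For ATF4 genes the median log2 difference from the control mean was 0.65, 0.83, 0.70, 0.67 and 0.64 in high-dose replicates 1 to 5, and for NRF2 genes 0.52, 1.01, 0.99, 0.82 and 0.83, while control lungs were between -0.09 and 0.11 for both. All 5 high-dose lungs also lay beyond the control range, on the same side, for both clock lists, ER chaperones, glycolysis genes and fibroblast genes. For clock repressors and outputs the medians were -0.32, -1.80, -1.84, -0.49 and -1.73 in replicates 1 to 5. For ER chaperones they were 0.14, 0.68, 0.85, 0.35 and 0.80. For inflammatory cytokines and chemokines the median was 0.10, 5.54, 5.52, -0.01 and 5.73 in high-dose replicates 1 to 5, and -0.15 to 0.23 in control lungs.

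**Figure D2:**
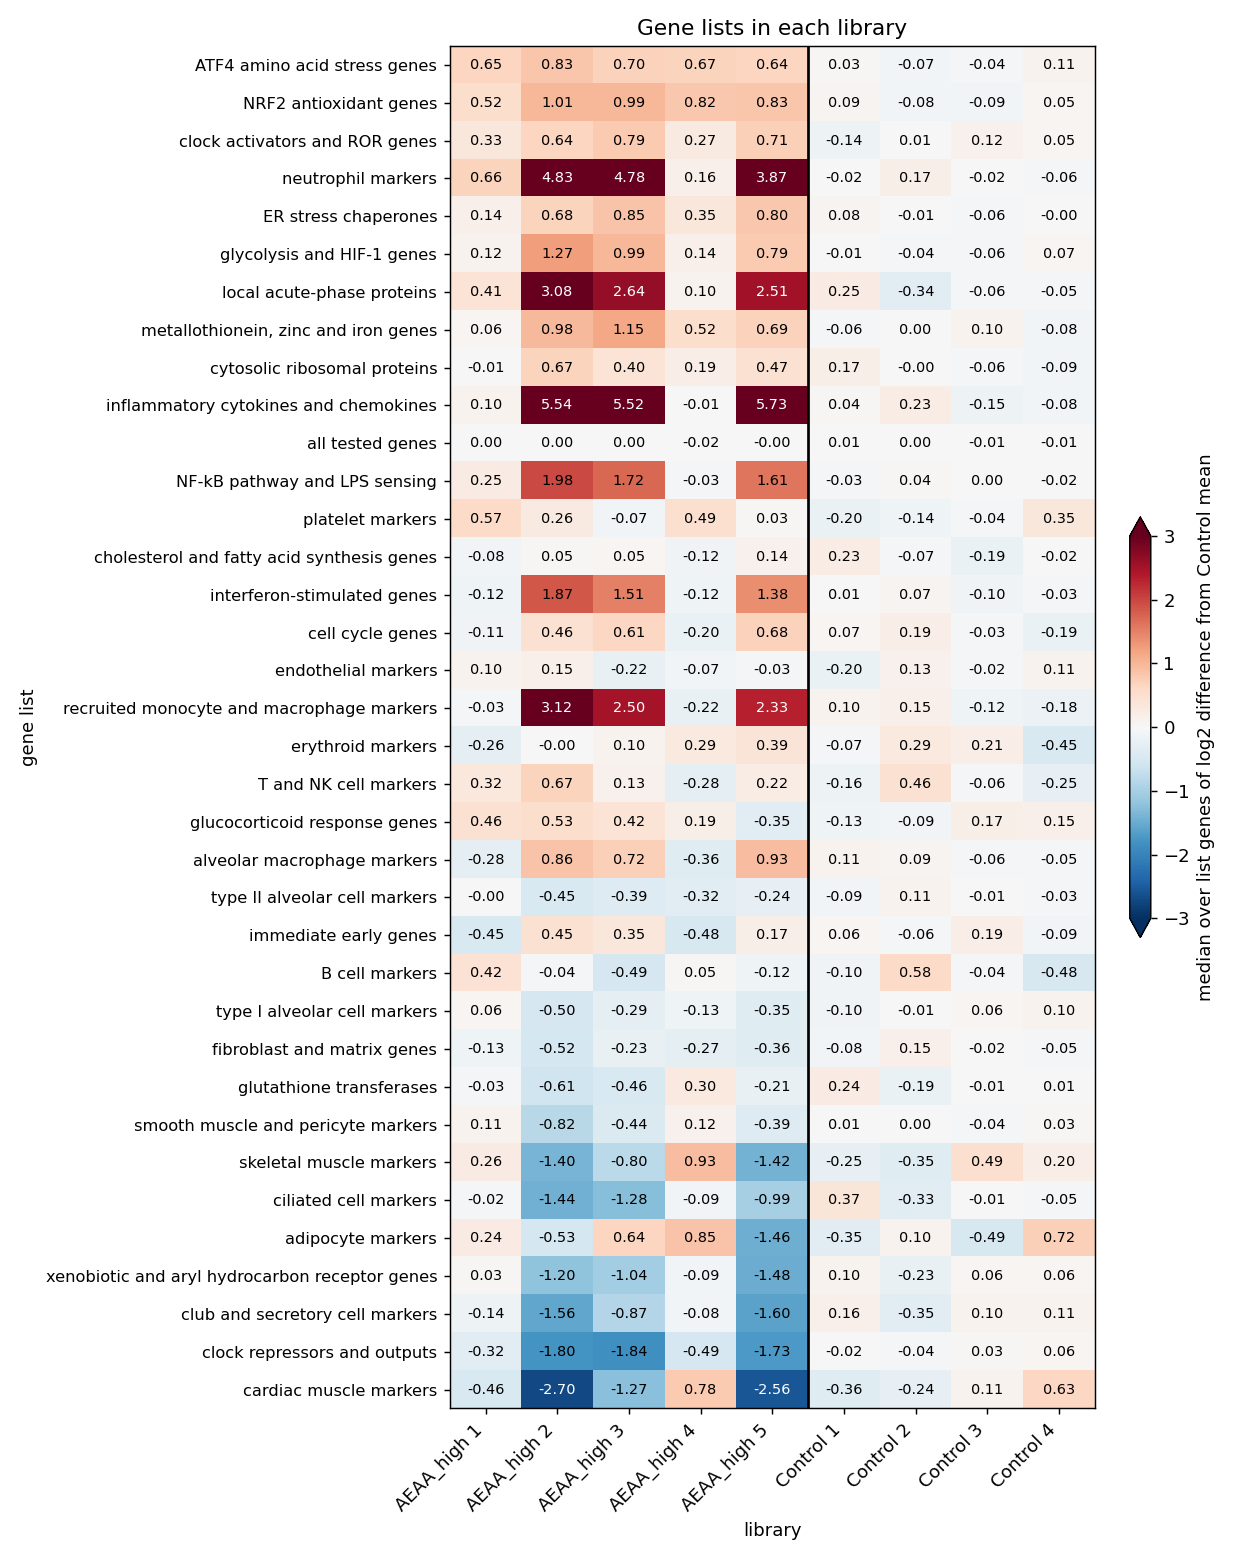
Median over the measured genes of each list of the log2 difference from the mean of the 4 Control libraries, for the 5 AEAA_high libraries (left of the line) and the 4 Control libraries (right); red is higher and blue lower, the colours stop at 3, and rows run from the list with the highest to that with the lowest minimum over the high-dose libraries. The ATF4 and NRF2 rows are red in all 5 high-dose columns, whereas the cytokine, neutrophil and monocyte rows are dark in columns 2, 3 and 5 only.

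**Figure D3:**
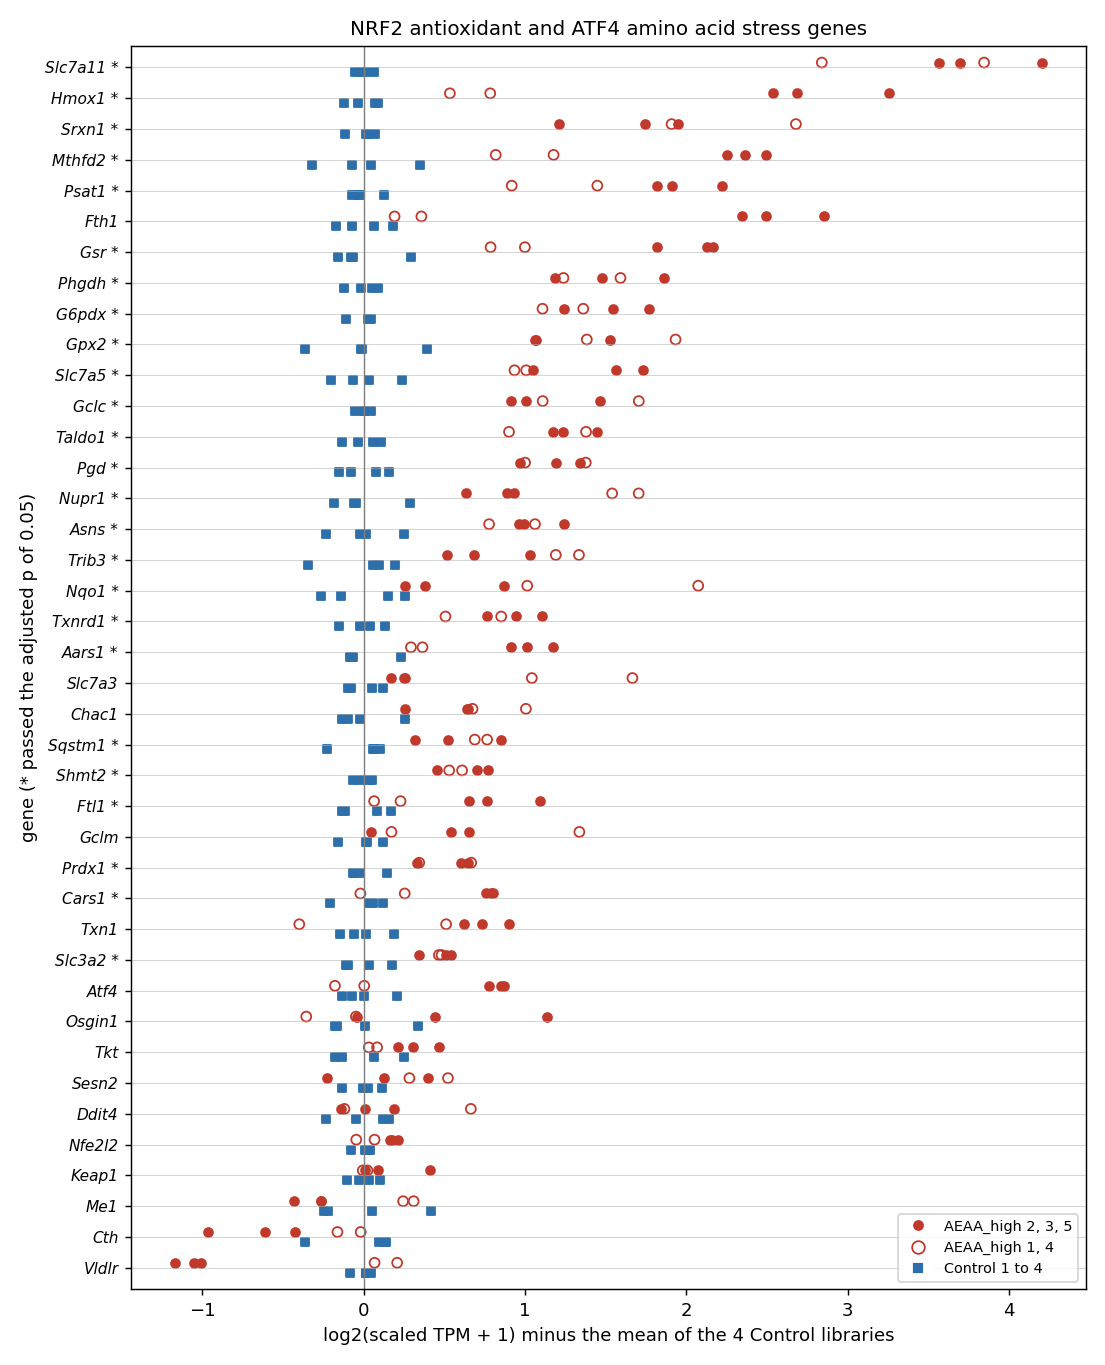
Each row is a gene of the NRF2 or ATF4 list and each mark a library, placed by log2(scaled TPM + 1) minus the Control mean; filled circles are AEAA_high replicates 2, 3 and 5, open circles AEAA_high replicates 1 and 4, squares the Control libraries, and a star marks an adjusted p of 0.05 or less. Open and filled circles mix for Slc7a11, G6pdx, Phgdh, Pgd and Taldo1, and separate for Hmox1 and Fth1.

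The start region of Slc7a11 is shown because this gene, counted in the NRF2 list, carries the sequence to which ATF4 binds. In the RefSeq window from 250 bases before to 50 after the start (build GRCm38.p6, chr3:50443564-50443863, minus strand) the amino acid response element TGATGCAA, searched on both strands, occurs 2 times, once in each direction, and is in capitals. It was found in 0.895% of 32851 such windows, and in 3 of the 15 windows of 13 ATF4-list genes (Chac1, Nupr1 and Vldlr). The antioxidant response element, TGAC and GCA with any 3 bases between them, was found in 3.04% of all windows and in 2 of the 24 windows of 19 NRF2-list genes (Pgd and Txnrd1).
Slc7a11: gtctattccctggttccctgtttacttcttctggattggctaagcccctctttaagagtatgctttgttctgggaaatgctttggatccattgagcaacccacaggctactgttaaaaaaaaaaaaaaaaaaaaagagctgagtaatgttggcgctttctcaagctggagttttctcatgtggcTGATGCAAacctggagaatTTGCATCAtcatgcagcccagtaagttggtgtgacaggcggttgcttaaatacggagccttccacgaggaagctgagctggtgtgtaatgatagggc

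Most ER chaperones rose: 12 of 16 measured members rose and 1 fell (81.2%), with a median log2 fold change of 0.61. Hspa5, the main ER chaperone BiP, was at 342, 463, 579.6, 428 and 486 scaled TPM in high-dose lungs, against 209, 203, 193 and 206 in control lungs (1.16 ± 0.17, adjusted p = 4.76e-04). Calr (calreticulin, a lectin chaperone) was at 377, 539, 558, 379 and 558 scaled TPM in high-dose lungs, against 257, 237, 234 and 241 in control lungs (0.97 ± 0.16, adjusted p = 9.98e-04). For both, every high-dose lung was above every control lung. Sdf2l1, a cofactor of ER chaperones, had 29.2, 79.02, 75.3, 50.5 and 65.6 scaled TPM in high-dose lungs, against 20.96, 15.3, 12.9 and 17.7 in control lungs (1.72 ± 0.30, adjusted p = 0.00148), replicate 1 being closest to control. The trophic ER protein Manf had 0.89 ± 0.23, adjusted p = 0.0147, although high-dose replicate 1 lay inside the control range. Calls of these 4 genes held in all 9 leave-one-out fits, while the count of members called was 8, 6 and 7 without high-dose replicate 2, high-dose replicate 3 or control replicate 3. The protein disulfide isomerases Pdia6 (0.63 ± 0.13, adjusted p = 0.00556), Pdia4 (0.58 ± 0.16, adjusted p = 0.0184) and Pdia3 (0.45 ± 0.11, adjusted p = 0.0118) rose too, Pdia4 losing its call without high-dose replicate 3 or control replicate 3 (adjusted p up to 0.057). Herpud1, which takes part in ER-associated degradation, fell (-0.60 ± 0.15, adjusted p = 0.0157), a call lost without high-dose replicate 2 or 3 (adjusted p up to 0.053). The 2-group fit called 6 members. Manf, Pdia3 and Herpud1 were not among them (adjusted p 0.0699, 0.0667 and 0.0978). In limma no member passed against LPS lungs (2 at an unadjusted p under 0.05), where the median difference was -0.00.

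The starts of 3 of these chaperones are shown with the ER stress response element, the letters CCAAT and CCACG with any 9 bases between them, in capitals (both strands searched). It was found in 6 of 14 list genes with a window (Calr, Canx, Creld2, Hsp90b1, Hspa5 and Pdia6), against 0.119% of all windows, and occurs 1 time at Hspa5 (chr2:34771840-34772139, plus strand) and Calr (chr8:84846882-84847181, minus strand) and 2 times at Hsp90b1 (chr10:86705395-86705694, minus strand; all GRCm38.p6). Hsp90b1, the ER form of the HSP90 chaperone, had 338, 315, 443, 354 and 436 scaled TPM in high-dose lungs, against 301, 298, 284 and 282 in control lungs (0.36 ± 0.12, adjusted p = 0.0446), a call lost without high-dose replicate 3 or 5 or any 1 control library (adjusted p up to 0.13), and in the 2-group fit (0.104). A match is a description of the window and not evidence of binding in these lungs.
Hspa5: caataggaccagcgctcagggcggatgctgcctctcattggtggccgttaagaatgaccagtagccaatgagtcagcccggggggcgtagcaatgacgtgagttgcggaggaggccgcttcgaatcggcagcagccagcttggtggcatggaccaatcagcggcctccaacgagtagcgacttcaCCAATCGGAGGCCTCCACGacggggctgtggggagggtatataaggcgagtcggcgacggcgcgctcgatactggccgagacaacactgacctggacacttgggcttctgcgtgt
Calr: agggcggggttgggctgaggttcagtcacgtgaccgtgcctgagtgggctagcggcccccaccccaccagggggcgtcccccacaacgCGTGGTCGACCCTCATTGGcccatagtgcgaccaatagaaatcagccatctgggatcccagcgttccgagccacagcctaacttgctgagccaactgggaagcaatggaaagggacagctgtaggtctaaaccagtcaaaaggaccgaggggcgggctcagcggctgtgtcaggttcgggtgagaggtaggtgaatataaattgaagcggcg
Hsp90b1: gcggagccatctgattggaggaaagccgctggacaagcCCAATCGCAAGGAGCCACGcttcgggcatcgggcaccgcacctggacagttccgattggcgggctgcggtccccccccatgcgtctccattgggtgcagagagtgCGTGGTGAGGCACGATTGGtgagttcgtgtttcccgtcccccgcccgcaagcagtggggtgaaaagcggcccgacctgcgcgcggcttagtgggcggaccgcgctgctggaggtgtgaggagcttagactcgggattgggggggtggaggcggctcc

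Several airway secretory transcripts were far below control. Scgb1a1, the main club cell product, was at 78707, 36469, 57167, 91009 and 84924 scaled TPM in high-dose lungs, against 549299, 289787, 368176 and 345274 in control lungs (-2.51 ± 0.31, adjusted p = 7.99e-05). Cyp2f2, the club cell cytochrome P450, was at 1864, 258, 299.8, 1458 and 514 scaled TPM in high-dose lungs, against 5214, 3161, 4075 and 4335 in control lungs (-2.69 ± 0.47, adjusted p = 0.00163). Every high-dose lung was below every control lung for both, but the order inside the group differed: for Cyp2f2 replicates 1 and 4 were several times above the other high-dose lungs, while for Scgb1a1 replicate 5 was at their level. In whole lungs, fewer cells of a type and less RNA per cell cannot be told apart. Scgb3a2, a secretoglobin of smaller airways, had 4150.5, 417, 511, 5049.9 and 979.97 scaled TPM in high-dose lungs, against 10347, 5164, 8779 and 7138 in control lungs. Its call (-2.50 ± 0.69, adjusted p = 0.0209) was lost without high-dose replicate 2 or 3 or control replicate 1 or 3 (adjusted p up to 0.073). Cbr2, a carbonyl reductase of club cells, fell (-2.34 ± 0.51, adjusted p = 0.0074). Of 13 measured club and secretory markers 5 fell and 0 rose (38.5%), with a median of -0.47, and 3 fell without high-dose replicate 2 or 3 or control replicate 1 or 3. The median was -0.10 and -0.23 without high-dose replicates 5 and 2, -0.77 and -1.03 without replicates 1 and 4, -0.73 and -0.27 without control replicates 2 and 4, and -0.12 in the TPM as deposited. Only Scgb1a1 and Cyp2f2 passed in the 2-group fit. Scgb3a2 and Cbr2 did not (adjusted p 0.0825 and 0.0652).

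Of the 3 largest increases against LPS lungs named by rule, 2 were secretory genes. Scgb3a1, a secretoglobin of airway cells, averaged 1721 ± 812 scaled TPM in high-dose lungs, 504 ± 273 in LPS lungs and 3309 ± 828.8 in control lungs (SD, n = 5, 5 and 4), a difference from LPS of 1.83 ± 0.43, adjusted p = 0.0113. Agr2, an ER protein of mucus-making cells, averaged 37.6 ± 22.1 in high-dose lungs, 9.41 ± 3.17 in LPS lungs and 11.9 ± 2.81 in control lungs (1.75 ± 0.50, adjusted p = 0.0318 against LPS). Agr2 was above both the LPS and the control means, and against control it had 1.41 ± 0.53, adjusted p = 0.0643, which did not pass. Commd1b (2.13 ± 0.59, adjusted p = 0.027), the other of the 3, was listed at 0 in 4 of 5 LPS libraries. Scgb3a1 kept its call in all 10 leave-one-out fits. Agr2 lost it without high-dose replicate 3 or 4 or LPS replicate 3 or 5 (adjusted p up to 0.088), and Commd1b in 7 fits, without high-dose replicate 3, 4 or 5 or LPS replicate 1, 3, 4 or 5 (up to 0.082). The log2 difference of Scgb1a1 from the shared control lungs was -2.51 in high-dose lungs, -3.23 in LPS lungs, -2.54 at the low dose and -3.17 at the mid dose, and the direct difference from LPS did not pass (0.71 ± 0.30, adjusted p = 0.141).

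Of 17 measured xenobiotic and aryl hydrocarbon receptor genes 7 fell and 1 rose (47.1%), with a median of -0.68, whereas in the TPM as deposited 3 fell and 4 rose, with a median of -0.33. Cyp1a1, the classic target of the aryl hydrocarbon receptor, was at 7.57, 2.87, 2.71, 9.03 and 1.53 scaled TPM in high-dose lungs, against 57.3, 34.8, 45.1 and 38.97 in control lungs (-3.15 ± 0.58, adjusted p = 0.00269), the largest decrease of the genes named by rule. Replicates 1 and 4 were again nearest to control, but well below it. The receptor gene Ahr had -0.26 ± 0.22, adjusted p = 0.397, and another of its targets, Cyp1b1, had 0.49 ± 0.28, adjusted p = 0.21. Aldh3a1, an aldehyde dehydrogenase, rose, with 86.9, 44.2, 62.8, 132 and 49.99 scaled TPM in high-dose lungs, against 28.4, 19.3, 30.6 and 29.2 in control lungs (1.36 ± 0.32, adjusted p = 0.0105). The calls of Cyp1a1 and Aldh3a1 held in all 9 leave-one-out fits, whereas the count for the list was 4 in 6 of them (without high-dose replicate 2, 3 or 5 or control replicate 1, 3 or 4) 11 and 10 without high-dose replicates 1 and 4, and 4 in the 2-group fit.

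Many clock genes differed from control, less so in high-dose replicates 1 and 4 than in the other 3 lungs. Of 13 measured repressors and outputs 10 fell and 0 rose (76.9%), with a median log2 fold change of -1.25. The other list holds 7 genes: activators, ROR genes and the repressor genes Nfil3 and Cry1. Of these 3 were higher and 1 was lower (57.1%). Dbp, an output factor that binds D-box sequences, was at 134, 13.1, 12.1, 101 and 18.9 scaled TPM in high-dose lungs, against 316, 276, 266 and 289.8 in control lungs (-3.05 ± 0.73, adjusted p = 0.0117). Replicates 1 and 4 held several times the Dbp of the other high-dose lungs and were well below every control lung. Per3, a clock repressor, was at 24.6, 4.58, 4.90, 21.5 and 7.62 scaled TPM in high-dose lungs, against 33.1, 31.97, 35.1 and 34.1 in control lungs (-1.65 ± 0.38, adjusted p = 0.01). Ciart, which represses CLOCK and BMAL1, had 18.8, 5.33, 3.87, 16.3 and 7.74 scaled TPM in high-dose lungs, against 31.2, 30.3, 27.4 and 33.1 in control lungs (-1.67 ± 0.35, adjusted p = 0.00561). Hlf, an output factor related to Dbp, had 12.99, 2.17, 3.06, 18.9 and 2.68 scaled TPM in high-dose lungs, against 19.4, 31.9, 22.97 and 21.05 in control lungs (-1.87 ± 0.45, adjusted p = 0.0116). In all 3 the groups did not overlap, with replicates 1 and 4 nearest to control. These 4 genes, Tef (-1.25 ± 0.27, adjusted p = 0.00662) and Bhlhe41 (-1.24 ± 0.24, adjusted p = 0.00389) kept their calls in all 9 leave-one-out fits, and the count for the list was 6 without high-dose replicate 2 and without replicate 3. Of the list, Bhlhe41 alone passed in the 2-group fit. There Dbp, Ciart, Tef, Per3 and Hlf had adjusted p values of 0.0542, 0.055, 0.0661, 0.0748 and 0.0803. In the TPM as deposited 6 fell and 1 rose.

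The repressor gene Nr1d1, which encodes REV-ERB alpha, showed the divide inside the group, with 139.5, 20.3, 21.5, 91.8 and 24.1 scaled TPM in high-dose lungs, against 134, 138, 139 and 145 in control lungs. Replicate 1 lay inside the control range, replicate 4 below it but far above the other 3 lungs, and the gene did not pass (-1.68 ± 0.65, adjusted p = 0.0693). Its relative Nr1d2 had 58.02, 16.3, 21.9, 61.8 and 26.4 scaled TPM in high-dose lungs, against 82.6, 84.9, 94.9 and 85.98 in control lungs, and here all 5 were below control (-1.41 ± 0.41, adjusted p = 0.0248), a call that held only without high-dose replicate 1 or 4 (adjusted p up to 0.084 in the other leave-one-out fits). Among activators, Bmal1 was at 2.29, 8.90, 7.07, 2.13 and 5.94 scaled TPM in high-dose lungs, against 1.36, 1.36, 0.992 and 0.964 in control lungs (1.38 ± 0.35, adjusted p = 0.0149) and Clock at 7.31, 8.94, 11.6, 7.93 and 9.90 scaled TPM in high-dose lungs, against 5.70, 5.96, 5.95 and 5.37 in control lungs (0.57 ± 0.10, adjusted p = 0.00148). Nfil3, a repressor at D-box sequences, was at 5.15, 36.2, 25.4, 6.45 and 19.3 scaled TPM in high-dose lungs, against 2.25, 2.35, 3.35 and 3.75 in control lungs (2.01 ± 0.50, adjusted p = 0.0139), and the nuclear receptor Rora fell (-0.52 ± 0.13, adjusted p = 0.0126). Without high-dose replicate 2 the adjusted p of Bmal1 was 0.052, and the other 3 kept their calls in each leave-one-out fit. None of these 4 passed in the 2-group fit (adjusted p 0.0512 to 0.0832). Nor did Nr1d2 (0.0661).

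Of the 7 genes in the list with the activators, 3 differed directly between high-dose and LPS lungs, all lower at the high dose. In that test 8.94% of all genes were called, and 3.27% were lower. Bmal1 averaged 5.27 ± 2.98 scaled TPM in high-dose lungs, 15.8 ± 4.76 in LPS lungs and 1.17 ± 0.222 in control lungs, and the difference from LPS was -1.51 ± 0.33, adjusted p = 0.00789. Npas2, which can stand in for CLOCK, differed from LPS by -1.30 ± 0.23, adjusted p = 0.00193, and Clock by -0.34 ± 0.09, adjusted p = 0.0253. Bmal1 and Npas2 kept their calls in all 10 leave-one-out fits but not in the 2-group fit (adjusted p 0.0961 and 0.0734), and Clock lost it without high-dose replicate 2 or 4 or LPS replicate 4 (adjusted p up to 0.073). None of the 13 repressors and outputs passed against LPS in limma (2 at an unadjusted p under 0.05), with a median difference of 0.44. For Dbp the difference from the shared control lungs was -3.05 at the high dose, -4.37 after LPS alone, -3.78 at the low dose and -2.82 at the mid dose. Since the hour of challenge is not given, its part in these values was not tested.

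**Figure D4:**
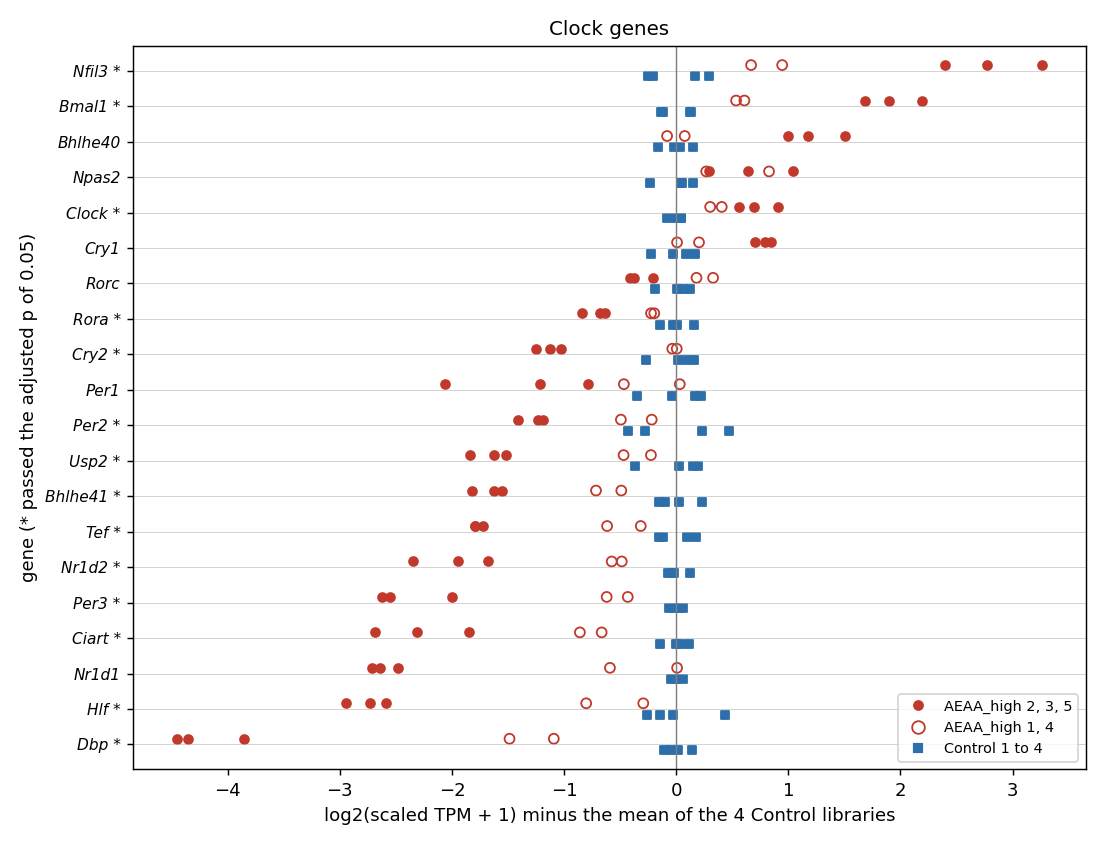
Each row is a clock gene and each mark a library, placed by log2(scaled TPM + 1) minus the Control mean; filled circles are AEAA_high replicates 2, 3 and 5, open circles AEAA_high replicates 1 and 4, squares the Control libraries, and a star marks an adjusted p of 0.05 or less. For Dbp, Hlf, Ciart and Per3 the open circles lie between the filled circles and the squares.

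Clock factors act through short sequences near gene starts, and 2 starts are shown that carry repeated copies. Ciart (chr3:95882179-95882478, minus strand) holds the E-box CACGTG, which CLOCK and BMAL1 bind, 3 times, and Per3 (chr4:151044616-151044915, minus strand) holds the D-box TTANGTAA, which DBP, TEF, HLF and NFIL3 bind, 2 times (RefSeq, GRCm38.p6, both strands searched, matches in capitals). An E-box was found in 5 of the 13 windows of 11 repressors and outputs (4 genes, Bhlhe41, Ciart, Per1 and Tef). In the other list it was in 1 of the 7 windows of 5 genes (Cry1, itself a repressor gene), against 7.15% of all windows. A D-box was found in 1 of these 13 and 0 of these 7 windows, against 2.32% of all windows. No motif searched here contains another.
Ciart: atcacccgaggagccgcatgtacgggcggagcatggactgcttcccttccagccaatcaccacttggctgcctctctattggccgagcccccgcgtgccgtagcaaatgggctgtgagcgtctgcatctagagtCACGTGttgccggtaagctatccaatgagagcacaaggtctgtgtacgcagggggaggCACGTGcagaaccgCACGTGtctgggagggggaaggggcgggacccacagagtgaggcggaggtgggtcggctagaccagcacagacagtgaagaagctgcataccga
Per3: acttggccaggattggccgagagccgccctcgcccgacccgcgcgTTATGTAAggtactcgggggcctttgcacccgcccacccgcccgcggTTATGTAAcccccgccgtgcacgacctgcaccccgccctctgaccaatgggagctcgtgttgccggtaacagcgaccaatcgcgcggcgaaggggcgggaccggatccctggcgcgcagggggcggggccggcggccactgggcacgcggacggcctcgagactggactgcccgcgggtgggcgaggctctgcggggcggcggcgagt

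Inflammatory genes differed widely within the high-dose group and within each of the other challenged groups. The summed level of the 21 measured cytokines and chemokines was 80.9 to 3806 scaled TPM in high-dose lungs, 159.8 to 4063 at the low dose, 122 to 4113 at the mid dose, 122 to 1803 in LPS lungs and 86.1 to 111 in control lungs. Cxcl2, a neutrophil chemokine, was at 0.410, 199, 361, 0.388 and 354 scaled TPM in high-dose lungs, against 0.217, 0.237, 0.357 and 0.0782 in control lungs. Lungs 2, 3 and 5 were far above control, replicates 1 and 4 lay just above the highest control lung, and the fitted difference of 4.83 ± 2.24, adjusted p = 0.119 did not pass. Tnf was at 1.13, 71.7, 58.99, 0.493 and 60.1 scaled TPM in high-dose lungs, against 0.713, 0.949, 0.291 and 0.391 in control lungs (3.29 ± 1.39, adjusted p = 0.09). Il1b was at 8.27, 656, 719, 5.73 and 439.9 scaled TPM in high-dose lungs, against 7.75, 8.43, 7.00 and 5.33 in control lungs (3.71 ± 1.49, adjusted p = 0.0779). For Tnf and Il1b as well, replicates 1 and 4 were within or near the control range and the other 3 lungs far above it. These 3 genes lie outside the naming rule and were chosen after their values were seen. Of 21 measured cytokines and chemokines 2 passed, both higher: Ccl20, a chemokine for dendritic cells and lymphocytes, with 2.92, 214, 255, 2.70 and 310.3 scaled TPM in high-dose lungs, against 1.02, 1.21, 0.278 and 1.15 in control lungs (4.67 ± 1.59, adjusted p = 0.0457), and Lif, a cytokine of the IL-6 family, with 1.23 ± 0.34, adjusted p = 0.0196. Lif lost its call without high-dose replicate 2, 3 or 5 or control replicate 3 or 4 (adjusted p up to 0.062). This share (9.52%) was below the 18.5% of all genes, while the list's median log2 fold change was 3.42. In the 2-group fit none passed (5654 genes of the whole table at an unadjusted p under 0.05), and 9 did in the TPM as deposited.

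Of 20 neutrophil markers 10 passed, all higher, with a median of 2.82, against 9.42% of all genes called higher. S100a9, a calcium-binding protein of neutrophils, was at 203, 6449, 7239.8, 110.5 and 3760.2 scaled TPM in high-dose lungs, against 90.8, 129, 91.1 and 99.00 in control lungs (3.69 ± 1.18, adjusted p = 0.0367). Its partner S100a8 had 99.5, 4296, 4710.2, 64.8 and 2609 scaled TPM in high-dose lungs, against 63.5, 77.5, 51.2 and 67.1 in control lungs (3.64 ± 1.22, adjusted p = 0.0435). Replicate 4 was inside the control range for both and replicate 1 just above it, far below the other 3 lungs. Ngp, a granule protein of young neutrophils, had 1.33, 148, 90.5, 6.13 and 21.9 scaled TPM in high-dose lungs, against 0.217, 0.899, 0.767 and 0.495 in control lungs (3.81 ± 1.20, adjusted p = 0.0346). Clec4d, a lectin receptor of myeloid cells, had 4.31, 141, 137, 2.90 and 138 scaled TPM in high-dose lungs, against 1.47, 2.35, 2.25 and 1.66 in control lungs (3.61 ± 1.18, adjusted p = 0.0402). In these 2 genes all 5 high-dose lungs were above the control lungs, replicates 1 and 4 by far less than the other 3. Cd177, a neutrophil surface protein, is outside this list and the naming rule. It belongs to the 23 genes picked above because every high-dose lung was at least 2-fold above every control lung, so its separation follows from that choice. It was 28.3 scaled TPM or more in every high-dose lung and 6.61 or less in every control lung (3.08 ± 0.51, adjusted p = 0.00106). The summed level of the 20 markers in the list was 731 to 29635 scaled TPM in high-dose lungs, 842 to 18084 in LPS lungs and 461 to 513 in control lungs. No member of this list passed in the 2-group fit. In the TPM as deposited 19 passed.

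Of 19 local acute-phase proteins 4 passed, all higher (21.1%, close to the 18.5% of all genes), with a median of 1.86, and 11 in the TPM as deposited. Orm1, a plasma acute-phase protein, was at 9.99, 435, 522, 16.98 and 459 scaled TPM in high-dose lungs, against 3.73, 1.21, 2.05 and 6.44 in control lungs (4.88 ± 1.56, adjusted p = 0.0364). Serpina3n, a protease inhibitor, had 104, 537, 424, 98.4 and 371 scaled TPM in high-dose lungs, against 40.2, 32.8, 36.3 and 34.5 in control lungs (2.73 ± 0.75, adjusted p = 0.0202), and its neighbour in sequence Serpina3m had 5.01, 73.96, 54.5, 3.92 and 39.95 scaled TPM in high-dose lungs, against 1.70, 0.462, 1.65 and 0.678 in control lungs (3.42 ± 1.11, adjusted p = 0.039). The heme carrier Hpx had 1.94 ± 0.50, adjusted p = 0.0151. Here every high-dose lung was above every control lung, by less in replicates 1 and 4. Of the remaining genes with the largest increases, the inhibitor of matrix proteases Timp1 had 12.9, 455, 556, 16.2 and 373 scaled TPM in high-dose lungs, against 11.6, 10.9, 7.86 and 7.19 in control lungs (3.53 ± 1.19, adjusted p = 0.0446), and the cytokine Il36g had 4.96, 97.5, 91.8, 10.1 and 67.3 scaled TPM in high-dose lungs, against 1.41, 0.936, 1.52 and 1.59 in control lungs (3.83 ± 0.93, adjusted p = 0.0123).

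Most of these calls rested on which lungs were in the fit. Ccl20, Orm1, Ngp, Clec4d, Timp1, Serpina3m, S100a8 and S100a9 kept their calls in only 2 of the 9 leave-one-out fits, those without high-dose replicate 1 or 4, and reached adjusted p values between 0.105 and 0.133 in the worst of the other 7. Il36g and Hpx kept them in all 9, and Serpina3n lost its call without high-dose replicate 2 or 3 (adjusted p up to 0.066). Il36g, Hpx, Serpina3n and Cd177 passed in the 2-group fit. The other called genes of these 3 lists that are named above, and Timp1, did not (adjusted p 0.0576 to 0.115). Without high-dose replicates 1 and 4 together, an alternative chosen after the data were seen, 20 of 21 cytokines, 18 of 20 neutrophil markers and 14 of 19 acute-phase proteins passed. Without replicate 1 alone the counts were 14, 18 and 11, without replicate 4 alone 14, 18 and 11, and in the other 7 fits they were at most 1, 2 and 2. No member of these 3 lists passed against LPS lungs in limma (0, 1 and 0 at an unadjusted p under 0.05), where the median differences were 0.65, 0.30 and 0.13.

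**Figure D5:**
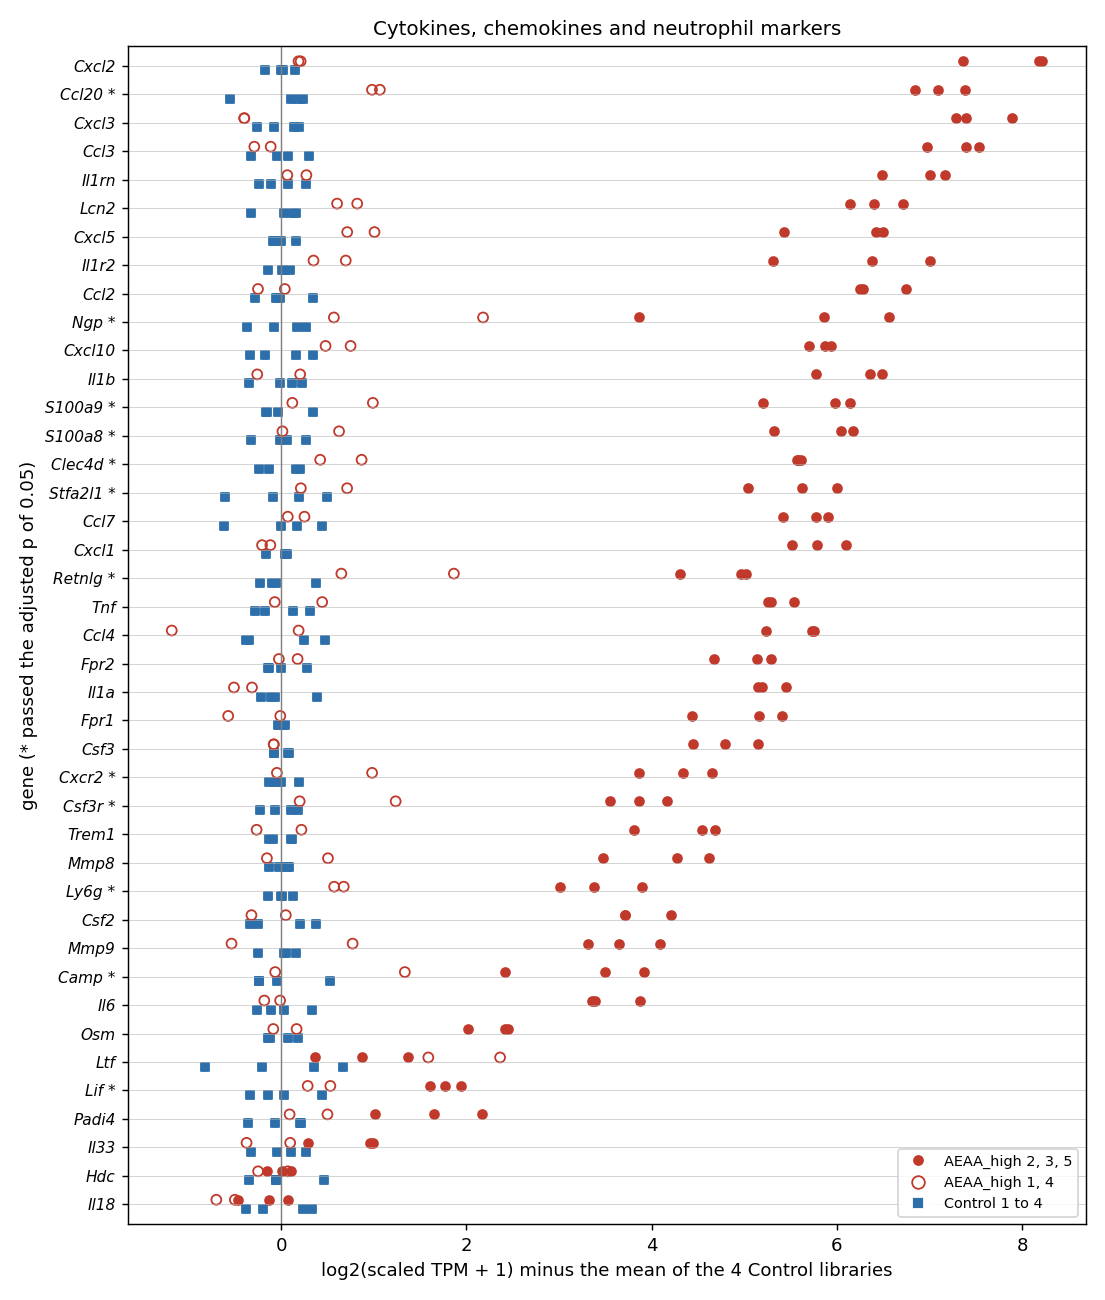
Each row is a cytokine, chemokine or neutrophil marker and each mark a library, placed by log2(scaled TPM + 1) minus the Control mean; filled circles are AEAA_high replicates 2, 3 and 5, open circles AEAA_high replicates 1 and 4, squares the Control libraries, and a star marks an adjusted p of 0.05 or less. Filled circles lie far to the right for nearly all rows, and open circles lie among the squares for most.

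The NF-kB and LPS-sensing list had 8 of 24 members higher and 0 lower (33.3%, median 1.13). Cd14, the LPS co-receptor, had 91.8, 673, 740.2, 82.98 and 582 scaled TPM in high-dose lungs, against 47.6, 34.6, 40.7 and 38.1 in control lungs (2.85 ± 0.85, adjusted p = 0.0286). The NF-kB regulators Tnip1 (1.87 ± 0.64, adjusted p = 0.0479), Bcl3 (1.62 ± 0.43, adjusted p = 0.0178) and Nfkb2 (1.64 ± 0.48, adjusted p = 0.0265) rose, Bcl3 with 15.99, 59.9, 51.3, 14.2 and 53.8 scaled TPM in high-dose lungs, against 9.54, 9.73, 9.77 and 11.2 in control lungs. Every high-dose lung was above every control lung for these 4 genes, with replicates 1 and 4 the lowest of the high-dose lungs. Bcl3 lost its call without high-dose replicate 2 or 3 (adjusted p up to 0.062), and the other 3 without any library but high-dose replicate 1 or 4 (up to 0.15). The list's count was 0 without high-dose replicate 2 or 3, 2 or 3 without replicate 5 or any control library, 15 and 18 without replicates 1 and 4, 0 in the 2-group fit and 22 in the TPM as deposited.

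Of 18 markers of recruited monocytes and macrophages 2 rose (11.1%, below the 18.5% of all genes called in either direction), the lysosomal protein Cd68 (1.85 ± 0.51, adjusted p = 0.0202) and the Fc receptor Fcgr4 (2.34 ± 0.76, adjusted p = 0.0386), with a median of 1.54. Both calls were lost without high-dose replicate 2, 3 or 5 or control replicate 3 or 4, and that of Fcgr4 also without control replicate 1 or 2 (adjusted p up to 0.13). The list's count was 11 and 12 without high-dose replicates 1 and 4, 0 in the 2-group fit and 12 in the TPM as deposited. No interferon-stimulated gene of 19 passed, with a median of 0.93. The count was 4 without high-dose replicate 1, 4 without replicate 4, 12 without both and 6 in the TPM as deposited. Isg15, a ubiquitin-like modifier, had 20.7, 333, 254, 34.4 and 203 scaled TPM in high-dose lungs, against 38.5, 40.6, 23.1 and 31.2 in control lungs (1.66 ± 0.88, adjusted p = 0.167), again split between replicates 1 and 4 and the rest. None of 13 alveolar macrophage, 16 T and NK cell or 12 B cell markers passed (medians 0.28, 0.20 and 0.03, the last being -0.06 with upper-quartile scaling). At an unadjusted p under 0.05, limma counted 5 interferon-stimulated, 1 alveolar macrophage, 0 T and NK cell and 2 B cell genes, and 6810 genes of the whole table. The alveolar macrophage chitinase-like protein Chil3 was below the control range in high-dose replicates 1 and 4 and far above it in the other 3, with 119.9, 990.3, 737, 116 and 689 scaled TPM in high-dose lungs, against 198, 169, 205 and 191 in control lungs (0.96 ± 0.57, adjusted p = 0.215). No member of the NF-kB, monocyte, alveolar macrophage, T and NK cell, B cell and interferon lists passed against LPS lungs in limma (2, 2, 0, 2, 2 and 0 at an unadjusted p under 0.05).

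Few alveolar markers passed. Of 14 type II cell markers 2 fell (14.3%, below the 18.5% of all genes), and of 12 type I markers 1 fell (8.33%). The 2 type II genes were Sftpc, surfactant protein C, with 32047, 6080.4, 7586, 33024 and 10216 scaled TPM in high-dose lungs, against 43820.2, 50514, 45895 and 45469 in control lungs (-1.75 ± 0.57, adjusted p = 0.04), and Scd1, a fatty acid desaturase, with 177, 168, 229, 168 and 227 scaled TPM in high-dose lungs, against 554, 301, 423 and 712 in control lungs (-1.30 ± 0.24, adjusted p = 0.00296). Sftpc was nearer to control in replicates 1 and 4, whereas Scd1 was evenly low in all 5 high-dose lungs, and only Scd1 kept its call in each leave-one-out fit. Sftpc kept it only without high-dose replicate 1 or 4 (adjusted p up to 0.12 in the others), and in those 2 fits the list's count was 6 and 4. The medians of the type II and type I lists were -0.26 and -0.26, and 0.09 and 0.09 in the TPM as deposited, where 1 type II marker rose and 1 fell, and 1 type I marker rose. In the type I list only Vegfa, a vascular growth factor, passed (-0.54 ± 0.17, adjusted p = 0.0357), and not in 6 leave-one-out fits, those without high-dose replicate 2, 3 or 5 or control replicate 2, 3 or 4 (adjusted p up to 0.12). Scd2, a related desaturase, fell (-1.03 ± 0.20, adjusted p = 0.00389), as did Srebf1, the regulator of fatty acid synthesis (-0.55 ± 0.12, adjusted p = 0.00699), which was also lower than in LPS lungs (-0.49 ± 0.11, adjusted p = 0.00995). These calls held in every leave-one-out fit. The 2-group fit kept Scd1 and Scd2. It lost Sftpc, Vegfa and Srebf1 (adjusted p 0.0803, 0.0874 and 0.0536). The cholesterol enzyme Sqle rose (0.47 ± 0.16, adjusted p = 0.048), a call that held only without high-dose replicate 1 or 4 or control replicate 1 (adjusted p up to 0.13 in the others), so that 3 of 18 genes of the lipid synthesis list fell and 1 rose (22.2%), with a median of -0.01. In the TPM as deposited 2 fell and 6 rose, with a median of 0.33. The 2-group fit had 2 lower, and Sqle did not pass (0.0788).

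Ciliated cell markers fell in 7 of 14 cases (median -0.81), against 9.09% of all genes called lower. Tppp3, a tubulin-binding protein, had 652, 207, 257, 601 and 282 scaled TPM in high-dose lungs, against 938, 671, 744 and 706 in control lungs (-1.08 ± 0.35, adjusted p = 0.04). The dynein light chain Dynlrb2 had 199.8, 64.1, 99.5, 279 and 132 scaled TPM in high-dose lungs, against 434, 249.97, 309 and 293 in control lungs (-1.20 ± 0.32, adjusted p = 0.0182). Replicates 1 and 4 lay just below the control range for Tppp3, and for Dynlrb2 replicate 4 lay inside it. Dynlrb2 lost its call without high-dose replicate 2 or 3 or control replicate 1 (adjusted p up to 0.062), and Tppp3 in all fits but those without high-dose replicate 1 or 4 (up to 0.13). The count of the list was 0 to 3 without high-dose replicate 2, 3 or 5 or any control library, and 12 and 10 without replicates 1 and 4. In the TPM as deposited 0 ciliated markers fell and 1 rose, and in the 2-group fit none passed.

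Fibroblast and matrix genes fell in 7 of 20 cases and rose in 0 (35.0%), with a median of -0.32. In the TPM as deposited 2 fell and 6 rose, with a median of 0.03. The 2-group fit had 2 lower. LPS lungs without extract were above the same control lungs for 9 of the 20 and below for 2, with a median of 0.24. In that comparison 27.9% of all genes were called, and 13.8% were higher. Directly against LPS lungs 4 were lower and 0 higher at the high dose, with a median of -0.54 (3.27% of all genes were lower). Inmt, a methyltransferase abundant in lung fibroblasts, had 2222, 326, 405, 2039.95 and 434 scaled TPM in high-dose lungs, against 2865, 2575, 2872 and 3193 in control lungs (-1.91 ± 0.59, adjusted p = 0.0317). Fbln1, a matrix protein, had 23.00, 6.78, 5.61, 21.4 and 5.26 scaled TPM in high-dose lungs, against 35.9, 34.3, 25.9 and 25.8 in control lungs (-1.48 ± 0.38, adjusted p = 0.016). For both, replicates 1 and 4 lay just under the control lungs and the other 3 far below them. Fbln1 was also lower than in LPS lungs (-1.20 ± 0.36, adjusted p = 0.0414), a call that held only without high-dose replicate 1 or 4 or LPS replicate 1. Its call against control was lost without high-dose replicate 2 or 3 (adjusted p up to 0.053), and that of Inmt in all fits but those without high-dose replicate 1 or 4 (up to 0.10). Without high-dose replicate 1 the list had 9 lower and 3 higher, without replicate 4 it had 8 lower and 2 higher, and in the other 7 fits 2 or 3 were lower. Among pericyte genes Higd1b, of a family induced by hypoxia (-1.27 ± 0.24, adjusted p = 0.00269), and Cox4i2, a subunit of cytochrome c oxidase (-1.07 ± 0.26, adjusted p = 0.0124), fell and kept their calls in all 9 leave-one-out fits. Higd1b was at 37.9, 23.3, 27.7, 55.6 and 42.9 scaled TPM in high-dose lungs, against 86.4, 95.5, 85.9 and 83.96 in control lungs, so the 5 high-dose lungs were all below control with replicate 4 the highest. Of 13 smooth muscle and pericyte markers 3 fell (23.1%, close to the 18.5% of all genes called), 6 and 5 without high-dose replicates 1 and 4, and 1 in the TPM as deposited and in the 2-group fit. Of the genes in this paragraph Higd1b passed in the 2-group fit, and Inmt, Fbln1 and Cox4i2 did not (adjusted p 0.0867, 0.0804 and 0.0576).

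Of the other genes with the largest decreases, Pon1, a lipoprotein esterase, had 52.3, 4.86, 8.14, 37.4 and 8.58 scaled TPM in high-dose lungs, against 164, 79.3, 148 and 150.01 in control lungs (-3.04 ± 0.65, adjusted p = 0.00659). Vpreb3, a protein of B cell precursors, had 54.04, 14.02, 16.9, 52.95 and 29.2 scaled TPM in high-dose lungs, against 178, 104, 147 and 147 in control lungs (-2.25 ± 0.32, adjusted p = 2.66e-04). Chad, a cartilage matrix protein, had -2.19 ± 0.56, adjusted p = 0.0147, and Lrat, which esterifies retinol, had -2.15 ± 0.50, adjusted p = 0.00974. All 4 showed no overlap between the groups, with replicates 1 and 4 the highest high-dose lungs. Chad lost its call without high-dose replicate 2 or 3 (adjusted p up to 0.052) and in the 2-group fit (0.0797).

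Metabolic and metal-handling genes moved in both directions. Glycolysis and HIF-1 genes rose in 7 of 20 cases and fell in 1 (40.0%, against 18.5% of all genes called, median 0.74). Gapdh was at 641, 1485, 1413, 869.6 and 1332 scaled TPM in high-dose lungs, against 557, 456, 462 and 496 in control lungs (1.15 ± 0.24, adjusted p = 0.00527), Eno1 had 1.39 ± 0.37, adjusted p = 0.0172 and Pkm 1.01 ± 0.32, adjusted p = 0.0372. Mt2, a metallothionein that binds zinc, had 161, 1581, 2014, 157 and 1150.4 scaled TPM in high-dose lungs, against 82.7, 60.9, 85.9 and 61.3 in control lungs (3.10 ± 1.01, adjusted p = 0.0393), and the zinc importer Slc39a14 had 2.25 ± 0.68, adjusted p = 0.0306. The iron hormone Hamp fell, with 24.7, 11.2, 16.8, 112 and 7.09 scaled TPM in high-dose lungs, against 63.9, 49.4, 69.4 and 115 in control lungs (-1.71 ± 0.59, adjusted p = 0.047), replicate 4 lying inside the control range. Only Gapdh of these 6 genes held in every leave-one-out fit. Eno1 was lost without high-dose replicate 2 or 3 or control replicate 3 (adjusted p up to 0.061), and Pkm, Mt2, Slc39a14 and Hamp in all fits but those without high-dose replicate 1 or 4 (up to 0.13). The glycolysis count was 14 and 12 in those 2 fits, 1, 2 and 3 without high-dose replicate 2, high-dose replicate 3 or control replicate 3, and 5 in the other 4. Myc, a growth regulator, was the 1 immediate early gene of 18 that rose, with 13.2, 31.4, 30.3, 12.8 and 22.5 scaled TPM in high-dose lungs, against 4.97, 6.62, 5.12 and 5.51 in control lungs (1.72 ± 0.27, adjusted p = 6.69e-04), and Fosb fell (-0.71 ± 0.22, adjusted p = 0.0354), though not without high-dose replicate 2, 3 or 5 or control replicate 1, 2 or 3 (up to 0.089). Cdkn1a, counted here among glucocorticoid response genes, had 73.1, 269, 203, 114 and 135 scaled TPM in high-dose lungs, against 30.2, 30.99, 34.1 and 35.6 in control lungs (2.11 ± 0.43, adjusted p = 0.00522). Angptl4, an inhibitor of lipoprotein lipase in the same list, rose (2.09 ± 0.54, adjusted p = 0.0163) and Klf9 fell (-0.92 ± 0.29, adjusted p = 0.0333), while 12 of the 15 members did not pass. The share called was 20.0% in the glucocorticoid list and 11.1% in the immediate early list, against 18.5% of all genes. Angptl4 lost its call without control replicate 1 (adjusted p 0.061), and Klf9 kept it only without high-dose replicate 1 or 4 (up to 0.10 in the others). Gapdh, Myc, Cdkn1a and Angptl4 passed in the 2-group fit. The other 7 called genes of this paragraph did not (adjusted p 0.0639 to 0.127). The glycolysis count was 1 in that fit and 14 in the TPM as deposited, where 6 glucocorticoid response genes rose and 0 fell.

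Cytosolic ribosomal protein genes rose in 9 of 20 cases (median 0.345), against 9.42% of all genes called higher. Rps2 was at 1246, 2978, 2604, 1545 and 2545 scaled TPM in high-dose lungs, against 1234, 1011, 1028 and 1055 in control lungs (0.94 ± 0.22, adjusted p = 0.0113), and Rplp0 had 0.69 ± 0.15, adjusted p = 0.00692. The count was 4 without high-dose replicate 2, 15 without replicate 1, 0 in the 2-group fit and 19 in the TPM as deposited. Against LPS lungs 15 of the 20 passed, all higher at the high dose, with a median of 0.59 (8.94% of all genes were called). LPS lungs without extract were below control for 8 of the 20 and above for 0, with a median of -0.20 (27.9% of all genes were called). Processed copies of ribosomal protein genes elsewhere in the genome can share reads, so single values are uncertain. The comparison with LPS moved with transcript length: across the 16407 genes with a length (92.1% of those tested), Spearman's rho between length and the log2 difference was -0.33. In the 1643 genes with the shortest transcripts the median difference was 0.22, with 262 genes higher and 17 lower at the high dose, and in the 1640 with the longest it was -0.16, with 10 higher and 180 lower. For high-dose against control lungs rho was -0.02, and the 10 length classes had medians between -0.02 and 0.04. Genes are not independent replicates, and the part of length in the ribosomal protein values and in all other calls against LPS lungs was not tested.

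The direct comparison of high-dose and LPS lungs called 1594 genes (8.94%), 1011 higher (5.67%) and 583 lower (3.27%), and in the TPM as deposited 366 were higher and 4553 lower. The count was 2911 without high-dose replicate 1, 942 and 798 without high-dose replicates 3 and 5, and 1030, 1061 and 1053 without LPS replicates 3, 4 and 5. The 3 largest decreases named by rule were Bmal1, described above, Pygm, the muscle glycogen phosphorylase (-1.86 ± 0.56, adjusted p = 0.0404), and the immediate early gene Fos (-1.40 ± 0.41, adjusted p = 0.0374). Fos averaged 24.2 ± 8.78 scaled TPM in high-dose lungs, 71.7 ± 38.5 in LPS lungs and 37.02 ± 25.2 in control lungs. Pygm averaged 8.41 ± 5.54 in high-dose lungs, 46.6 ± 47.5 in LPS lungs and 16.8 ± 2.14 in control lungs. The summed level of the 6 skeletal muscle markers was 8.41 to 87.0 scaled TPM in high-dose lungs, 14.2 to 3901 in LPS lungs and 35.0 to 60.6 in control lungs, and its part in the Pygm value was not tested. Fos lost its call in 7 of the 10 leave-one-out fits, keeping it without high-dose replicate 3 or LPS replicate 4 or 5 (adjusted p up to 0.11), and Pygm lost it without high-dose replicate 2, 3 or 5 or LPS replicate 1 or 3 (up to 0.12).

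Markers of other tissue, endothelial markers and cell cycle genes were looked at in the same libraries. In each list of this paragraph 0% to 11.8% of the members were called, below the 18.5% of all genes. Cardiac muscle markers summed to 229 to 2623 scaled TPM in high-dose lungs and 1093 to 2093 in control lungs, and 1 of 11 fell, the cardiac actin Actc1, with 171, 49.4, 94.9, 294 and 61.3 scaled TPM in high-dose lungs, against 291, 205, 269 and 310.3 in control lungs (-1.29 ± 0.45, adjusted p = 0.0497). The count was 9 without high-dose replicate 4, 4 without replicate 1 and 0 in the other 7 fits. Of 9 erythroid, 9 platelet and 9 adipocyte markers 1 each rose: the anion exchanger Slc4a1 (0.84 ± 0.27, adjusted p = 0.0372), the platelet receptor chain Gp1bb (0.98 ± 0.23, adjusted p = 0.0105) and the lipase Lipe (0.74 ± 0.19, adjusted p = 0.0163). None of 6 skeletal muscle markers passed in limma, and 0 had an unadjusted p under 0.05. Endothelial markers had 1 higher and 1 lower of 20, the nitric oxide synthase Nos3 (0.87 ± 0.28, adjusted p = 0.0377) and the receptor Tie1 (-0.51 ± 0.16, adjusted p = 0.0321), with a median of 0.03 that was -0.07 with upper-quartile scaling. Without high-dose replicate 1 there were 4 higher and 7 lower, without replicate 4 there were 4 higher and 5 lower, and the other 7 fits gave none but 1 lower without control replicate 1. The TPM as deposited gave 6 higher and 0 lower. Of 17 cell cycle genes the replication helicase subunits Mcm5 (1.12 ± 0.28, adjusted p = 0.013) and Mcm6 (0.59 ± 0.16, adjusted p = 0.0185) rose. Gp1bb and Mcm5 kept their calls in every leave-one-out fit, and Lipe lost its call without control replicate 1 (adjusted p 0.054). Actc1, Slc4a1 and Nos3 kept theirs only without high-dose replicate 1 or 4, Tie1 only without these or control replicate 1, and Mcm6 only without these or control replicate 1 or 2 (up to 0.15 in the others). Slc4a1 and Lipe passed in the 2-group fit. Actc1, Gp1bb, Nos3, Tie1, Mcm5 and Mcm6 did not (adjusted p 0.0586 to 0.114).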

How the data were processed

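The authors deposited 1 table of TPM per gene for all 24 lungs, which the labels call biological replicates, 9 of them compared here. HISAT2, StringTie, RSEM, DESeq2 and the build GRCm39 are listed, without roles, per the submitters' processing notes, and read counts were not used here. Each library was divided by its median-of-ratios factor. Genes with a deposited value of 1 TPM or more in at least 4 of 24 libraries were kept, and log2(scaled TPM + 1) was fitted for the 5 groups together in limma 3.58.1 (R 4.3.3), with Benjamini-Hochberg adjusted p over all genes, after a check on simulated data. Same-numbered lungs of different groups were not paired, since their deviations did not correlate alike (-0.05 to 0.14 with control, -0.46 to 0.43 with LPS lungs). Genes were named by rule: the 10 largest changes in each direction among called genes without overlap, up to 4 per list and 3 each way against LPS. Others were named for their role after their values were seen. The values of 1 gene named by rule are not reported here. The members and lists were chosen with earlier results of these data known. Alternatives were other scalings, pseudocounts, filters, array weights, a replicate block, a fit of the 2 compared groups alone and leaving out libraries.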

Additional observations from a re-analysis of the deposited data

Results flagged for a closer look

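In 224 groups of 4 or 5 libraries (112 named genes, each in 2 groups), 8 libraries stood apart from the rest of their group by a gap rule that chance alone meets in about 1 of 20 groups, and no explanation was weighed. High-dose replicate 1 had 0.50 scaled TPM of the erythroid anion exchanger Slc4a1, against 1.28 to 1.60 in the other high-dose lungs. LPS replicate 2 had 6.66 scaled TPM of Commd1b, which was listed at 0 in the other LPS lungs. Among control lungs, replicate 2 had 79.29 scaled TPM of Pon1 (148.37 to 163.74 in the others), 19.33 of Aldh3a1 (28.42 to 30.62), 5.76 of the helicase subunit Mcm5 (4.83 to 4.97) and 25.41 of the T cell factor Tcf7 (15.89 to 16.88). Control replicate 3 had 0.28 scaled TPM of Ccl20 (1.02 to 1.21 in the others) and control replicate 4 had 11.17 of Bcl3 (9.54 to 9.77).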

How the results depend on the processing

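Against control, where 3300 genes were called, the count was 6957 with the TPM as deposited (6687 higher, 270 lower), 1695 with no filter, 556 with only the 2 groups compared, 10014 with array weights, 8566 without high-dose replicates 1 and 4 together (chosen after seeing the data) and 696 at a log2 change of at least 1. Leaving out 1 library gave 1005 to 6020. Against LPS, where 1594 were called, these counts were 4919, 792, 0 (2901 at an unadjusted p under 0.05 in limma), 4308, 4669 and 112, and 798 to 2911 without 1 library. The replicate block gave 2672 and 1510, upper-quartile scaling 3298 and 1609, a pseudocount of 0.1 gave 3275 and 1593, and a mean TPM of 1 or more 3270 and 1659. Same-numbered lungs did not pair, and not every lung correlated best with its own number. Of 101 calls of genes named by rule, 69 were lost with only the 2 groups compared, 38 with no filter, 25 at a log2 change of at least 1, 18 in the TPM as deposited, 5 with the replicate block and 2 each with array weights, upper-quartile scaling and a pseudocount of 0.1. Leaving out 1 high-dose library lost 1 to 50 of them. Of the named values 3 changed sign, none of them called. Fabp5 had -0.039 with upper-quartile scaling, -0.10 with the replicate block and -0.17 to 0.33 without 1 library. Ighm had -0.13 with array weights, -0.061 without high-dose replicates 1 and 4, and -0.083 to 0.38 without 1 library. Xist had 0.30 in the TPM as deposited and -0.21 to 0.028 without 1 library. The causes were not tested. Depth is unknown, and low values limit what can be seen.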
